A study of Mus musculus with 6 samples.

Results

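Neutrophils were described among single cells sorted from the colon tumors of 6 mice as negative for EPCAM, CD45 and CD31. The wells that hold them were selected by 2 transcripts, *S100a8* and *S100a9*, which together had to make up at least 1% of the counts of a well. Of 2304 wells on 6 plates of 384, 1233 were kept, on the limits of 100 to 6000 genes detected and mitochondrial counts under 10%, and 431 of these met the rule. The other 802 kept wells are called other wells. Tumors were induced with the carcinogen azoxymethane and the colitis agent dextran sulfate sodium. Mice of the group Zeb1Fib-deleted (n = 3) carried floxed *Zeb1* and a Col6a1Cre transgene, which acts in fibroblasts, and mice of the group Zeb1Fib-Ctrl (n = 3) lacked the transgene. No further treatment was given, the background was C57BL/6 and the animals were littermates matched for age. Each mouse filled 1 plate, so that mouse and plate are the same unit, and Zeb1Fib-deleted 3 was sequenced in another run. The sort was meant to isolate fibroblasts, and the labels call the cells CAFs, for cancer-associated fibroblasts.

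Neutrophils are short-lived granulocytes that leave the bone marrow with their granule proteins already made, migrate along chemokines and formylated peptides into inflamed tissue, and there kill microbes with oxidants, proteases and antimicrobial proteins. S100A8 and S100A9 form calprotectin, a calcium- and zinc-binding heterodimer that is abundant in the neutrophil cytosol. CD45, the tyrosine phosphatase encoded by *Ptprc*, is carried on the surface of leukocytes in general, so a gate for CD45-negative cells is intended to remove them. In GRCm38, *S100a8* lies on chromosome 3 from 90668978 to 90670035 on the plus strand, and *S100a9* follows on the minus strand from 90692632 to 90695721. *Ptprc* lies on chromosome 1 from 138062861 to 138175708, on the minus strand.

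The number of neutrophil wells was 24, 185 and 18 in Zeb1Fib-Ctrl 1, 2 and 3, and 81, 58 and 65 in Zeb1Fib-deleted 1, 2 and 3. This was 10.6%, 83.7% and 13.2% of the kept wells in Zeb1Fib-Ctrl mice and 27.2%, 23.9% and 59.6% in Zeb1Fib-deleted mice. The exact 95% binomial intervals ran from 6.92 to 15.4% in the mouse with the lowest share and from 78.2 to 88.3% in that with the highest, and cover counting error only. Zeb1Fib-Ctrl 2 stood above all other mice, while Zeb1Fib-Ctrl 1 and 3 stood below all Zeb1Fib-deleted mice. The mean share was 35.9 ± 41.5% in Zeb1Fib-Ctrl and 36.9 ± 19.8% in Zeb1Fib-deleted mice (SD, n = 3 each). The difference of 1.04 percentage points was far below the spread between mice (exact two-sided permutation test, p = 1, with 0.1 the smallest p possible). Without Zeb1Fib-Ctrl 2 the difference was 25.0 points (exact permutation test, p = 0.2). Without Zeb1Fib-Ctrl 1, Zeb1Fib-Ctrl 3 or Zeb1Fib-deleted 3 it was -11.6, -10.3 and -10.3 points. In a count of sorted wells, more neutrophils cannot be told apart from fewer other cells that passed the gate.

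**Figure D1:**
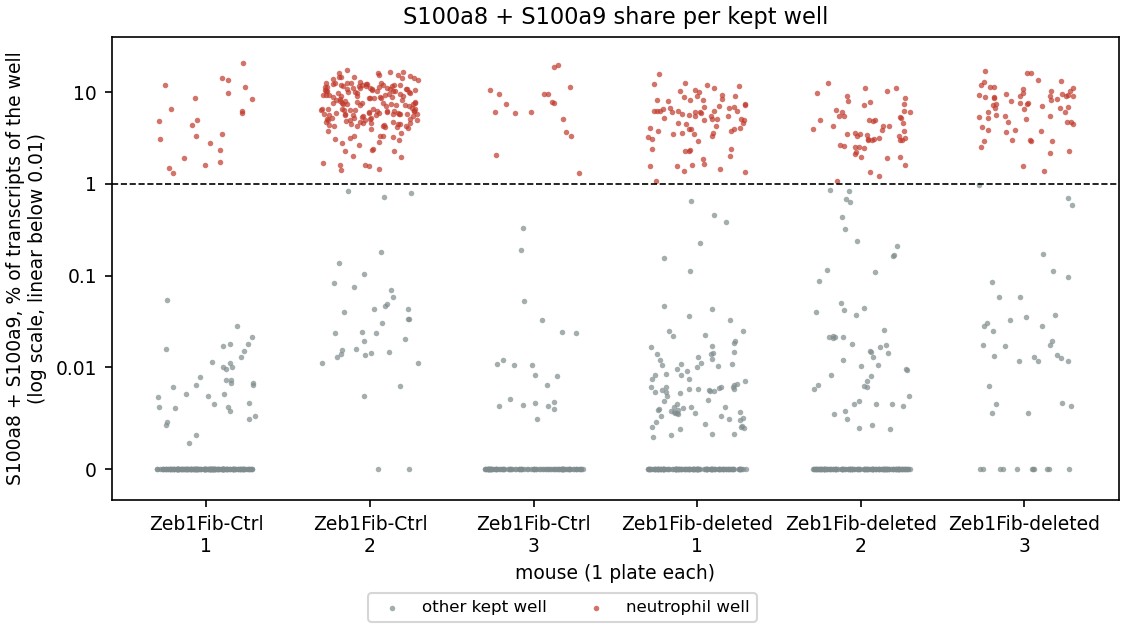
Each point is 1 kept well, placed by mouse on the x axis and by the percentage of its transcripts from *S100a8* and *S100a9* on the y axis, which is logarithmic above 0.01% and linear below. Red points at or above the dashed line at 1% are the 431 neutrophil wells, which reach 20.9%, and 531 of the 802 other wells lie at 0.

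The values that selected the wells are given as a description. Among neutrophil wells the *S100a8* and *S100a9* share had a median of 6.13% and a maximum of 20.9%. The wells just inside the threshold were at 1.08%, 1.08% and 1.20%, and those just outside at 0.962%, 0.866% and 0.837%. Few wells lay near it, with 31 neutrophil wells between 1% and 2% and 11 other wells between 0.5% and 1%. Of the other wells, 771 were below 0.1%. Pooled over the other wells of a mouse, the share was 0.00205%, 0.0398% and 0.00245% in Zeb1Fib-Ctrl and 0.00399%, 0.0108% and 0.0229% in Zeb1Fib-deleted mice. This background was highest in Zeb1Fib-Ctrl 2 and Zeb1Fib-deleted 3, the plates with the largest shares of neutrophil wells. The part of RNA carried over between wells in this was not tested.

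Neutrophil wells were shallow. Their median was 1906, 1413 and 1291 transcripts per well in Zeb1Fib-Ctrl 1, 2 and 3 and 1182, 1095 and 2669 in Zeb1Fib-deleted 1, 2 and 3. Other wells had medians of 11036, 9374 and 9462 and of 13164, 6448 and 11038 transcripts, respectively. The deepest neutrophil well of any mouse held 5121 transcripts, and 0 of 431 reached the median of the other wells of its mouse. Counting error alone allows a share of up to 0.696%, with wells taken as independent, which leaves out the spread between mice. Median detected genes per well were between 556 and 1024 in neutrophil wells and between 2327 and 3834 in other wells. With every well thinned to 500 molecular barcodes, which left out 30 neutrophil and 24 other wells, the median was 303 to 322 genes in neutrophil wells and 364 to 384 in other wells, without overlap between mice. Mitochondrial transcripts had medians of 4.42 to 7.53% in neutrophil wells and of 6.50 to 7.20% in other wells. The sorter is meant to place a single cell in a well. Doublets were not called, and whether some wells held more than 1 cell was not tested.

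**Figure D2:**
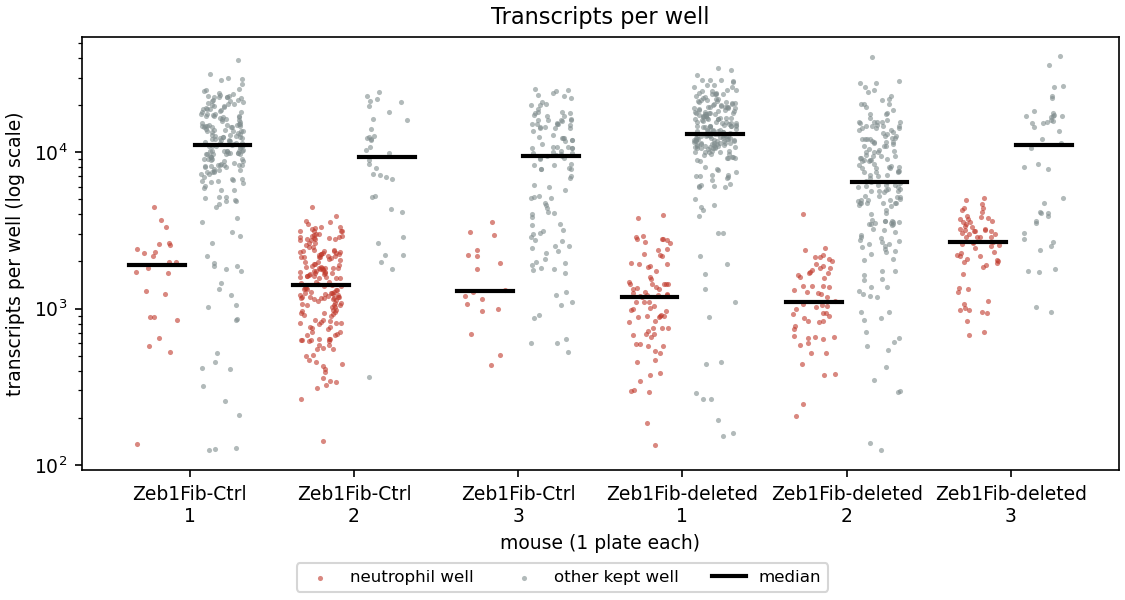
Each point is 1 kept well, with its number of transcripts on a logarithmic y axis, for each of the 6 mice on the x axis, and black bars are medians. The red neutrophil wells have medians between 1095 and 2669 transcripts, below the medians of the grey other wells of the same mouse, which lie between 6448 and 13164.

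The cell type name was checked on the 4 given neutrophil markers that the rule did not use. *Retnlg* encodes a resistin-like protein of granulocytes, *Csf3r* the receptor for the granulocyte growth factor G-CSF, *Irg1* the enzyme that makes itaconate in activated myeloid cells, and *Clec4d* a C-type lectin of myeloid cells. At least 2 of the 4 were detected in 406 of 431 neutrophil wells (94.2%), all 4 in 251 wells and none in 8. Among other wells, 48 held at least 2, with 1, 17 and 1 in Zeb1Fib-Ctrl 1, 2 and 3 and 7, 11 and 11 in Zeb1Fib-deleted 1, 2 and 3. These were 47.2% of the other wells in Zeb1Fib-Ctrl 2, 25.0% in Zeb1Fib-deleted 3 and at most 5.95% in the remaining mice. In wells thinned to 500 barcodes, *Irg1* was detected in 86.8% of neutrophil and 2.31% of other wells, *Retnlg* in 72.8% and 0.514%, *Csf3r* in 64.6% and 2.06%, and *Clec4d* in 54.6% and 2.06%. Without thinning, the percentages were 93.5 and 7.73 for *Irg1*, 81.7 and 9.23 for *Retnlg*, 82.1 and 6.98 for *Csf3r*, and 77.7 and 5.11 for *Clec4d*, at median depths of 1413 and 10813 transcripts. The name neutrophil was therefore kept.

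Levels were then compared within each mouse on counts summed over wells and scaled to a total of 1000000 (CPM), with *S100a8* and *S100a9* left out of the total, so that deep wells weigh more than shallow ones. The log2 ratio of neutrophil to other wells was taken on CPM + 5, and a gene was counted as higher if it was at least 4-fold higher in every one of the 6 mice. Since transcripts of the same wells selected the neutrophil wells, these ratios are a description without a test. Of 17640 genes with a count, 350 (1.98%) were higher by this measure and 476 (2.70%) were at least 4-fold lower in every mouse, and the median log2 ratio of all genes was -0.57. The 15 genes with the largest median ratio, among those at 50 CPM or more in neutrophil wells, were *Retnlg*, *Irg1*, *Il1b*, *Hdc*, *Slfn4*, *Ccl6*, *Lilrb4*, *Gp49a*, *Trem1*, *Tyrobp*, *Plek*, *Csf3r*, *Lcp1*, *Clec4d* and *1100001G20Rik*.

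*Retnlg* led with a median log2 ratio of 9.13. It was at 8187, 12379 and 12293 CPM in neutrophil wells of Zeb1Fib-Ctrl 1, 2 and 3, and at 7558, 3511 and 13421 CPM in those of Zeb1Fib-deleted 1, 2 and 3. Zeb1Fib-deleted 2 was the lowest and Zeb1Fib-deleted 3 the highest, so that the groups overlapped. In other wells it was at 3.24 to 88.2 CPM, highest in Zeb1Fib-Ctrl 2. *Irg1* was at 5426 to 8459 CPM against 0.873 to 118 CPM, with a log2 ratio of 8.10. *Hdc*, the histidine decarboxylase that makes histamine, was at 4491 to 7334 CPM against 1.75 to 155 CPM, with a ratio of 7.79. *Plek*, a substrate of protein kinase C in platelets and leukocytes, was at 2986 to 5072 CPM, with a ratio of 7.31.

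Granule genes were grouped by the stage at which their proteins are made, and the groups were not tested against each other. Neutrophil precursors make primary granule proteins first and gelatinase and secretory proteins last. Of 6 measured genes for primary granules or dividing precursors, 0 were higher, and *Mpo* (myeloperoxidase), *Elane* (neutrophil elastase) and *Ms4a3* had 0 counts in all neutrophil wells, where 3 counts correspond to 4.52 CPM. The list summed to 0 to 69.1 CPM in neutrophil wells and 16.0 to 70.6 CPM in other wells. Of 9 measured secondary granule genes, 3 were higher. *Lcn2*, the siderophore-binding lipocalin, was at 1783 to 3971 CPM (median log2 ratio 4.83), *Hp* (haptoglobin) at 708 to 1315 CPM (3.39) and *Lyz2* (lysozyme) at 131 to 546 CPM (5.66). The classical secondary granule gene *Ltf* (lactoferrin) was at 0 to 37.7 CPM, and *Camp* (cathelicidin) and *Chi3l3* had 0 counts. *Ngp* was at 0 to 232 CPM, with 0 in Zeb1Fib-deleted 2. Of 10 genes for tertiary granules and secretion, 6 were higher. *Mmp9* (gelatinase B) was at 934 to 1611 CPM with a ratio of 5.30. *Mmp8* (neutrophil collagenase) was at 526 to 1731 CPM with a ratio of 6.59. *Slpi*, an inhibitor of leukocyte proteases, was at 1416 to 2770 CPM with a ratio of 4.92. *Mxd1*, at 3333 to 4458 CPM with a ratio of 6.49, is in this list but encodes a MYC antagonist, not a granule protein.

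Most receptors for migration were higher in neutrophil wells. Of 14 genes for chemotaxis and adhesion, 12 reached 4-fold in every mouse, with a median log2 ratio of 6.02, and the list summed to 12275 to 15487 CPM in neutrophil wells against 425 to 870 CPM in other wells. *Cxcr2*, the receptor for CXCL1 and CXCL2, was at 488, 983 and 823 CPM in Zeb1Fib-Ctrl and 930, 1022 and 860 CPM in Zeb1Fib-deleted mice. *Cxcr4*, which retains neutrophils in the bone marrow and is regained by aged cells, was at 345 to 905 CPM. The formyl peptide receptors *Fpr1* and *Fpr2* were at 691 to 1001 and 972 to 1380 CPM. The integrin chain *Itgam* (CD11b) was at 501 to 935 CPM. *Ltb4r1* and *Ptafr*, the receptors for leukotriene B4 and platelet-activating factor, were at 18.8 to 112 and 0 to 200 CPM and did not reach 4-fold in every mouse.

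Among 17 cytokine and chemokine genes, 6 were higher and 2 were lower. *Il1b*, which encodes interleukin-1β, a central cytokine of acute inflammation, was at 10160, 12825 and 12738 CPM in neutrophil wells of Zeb1Fib-Ctrl 1, 2 and 3 and 13467, 14238 and 10799 CPM in those of Zeb1Fib-deleted 1, 2 and 3. The groups overlapped. *Il1b* was detected in 95.8% of neutrophil wells and in 3.21% of other wells at 500 barcodes. *Cxcl2*, a ligand of CXCR2, was at 5415 to 9648 CPM in neutrophil wells against 93.5 to 355 CPM in other wells. *Ccl6* was at 1665 to 2472 CPM, the interleukin-1 receptor antagonist *Il1rn* at 524 to 1731 CPM and the cytokine *Osm* (oncostatin M) at 112 to 366 CPM. *Cxcl1* and *Il6* were the 2 lower genes, with 0 to 342 CPM against 474 to 2198 CPM for *Cxcl1* and 0 to 24.4 CPM against 70.1 to 347 CPM for *Il6*. Thus *Il1b*, *Cxcl2*, *Ccl6*, *Il1rn*, *Osm* and *Tnfsf14* were higher in neutrophil wells, while *Cxcl1* and *Il6* were higher in the other wells of the same plates. *Il10* had 0 counts, *Vegfa* was at 0 to 190 CPM against 90.9 to 191 CPM, and *Tnf*, at 161 to 487 CPM, did not reach 4-fold in every mouse.

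**Figure D3:**
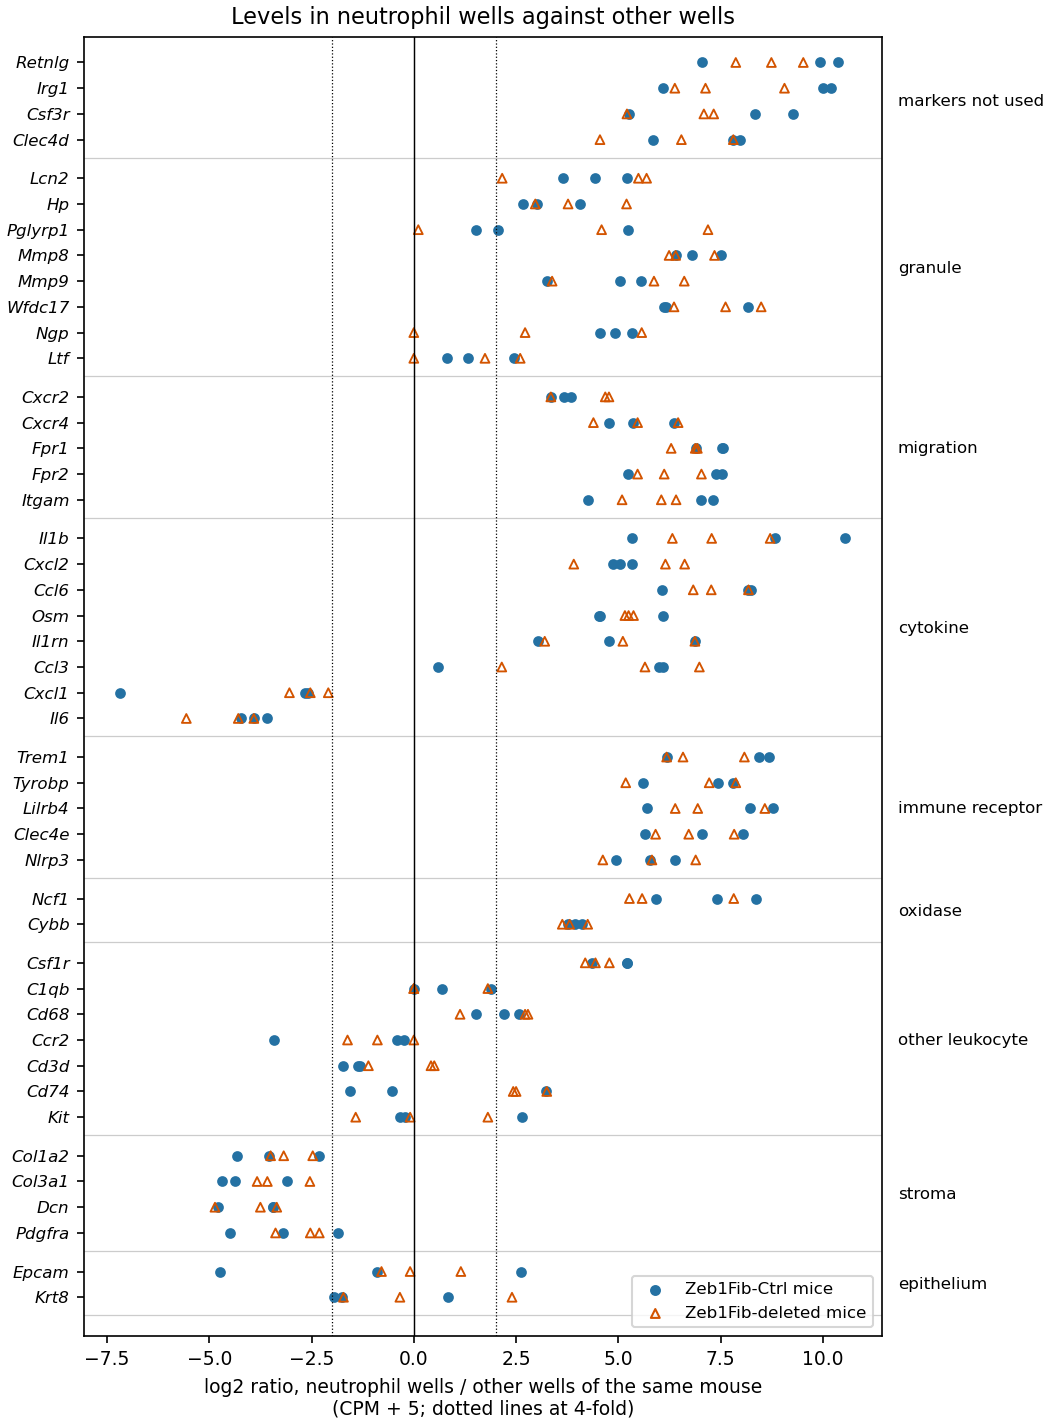
The x axis gives the log2 ratio of CPM + 5 in neutrophil wells to that in other wells of the same mouse, with dotted lines at 4-fold, and each row is a gene, grouped by list. Filled circles are the 3 Zeb1Fib-Ctrl mice and open triangles the 3 Zeb1Fib-deleted mice. *Retnlg* lies between 7.05 and 10.36 in all 6 mice, and the collagen genes *Col1a2* and *Col3a1* lie below 0 in all 6.

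Sensing and killing genes followed. Of 19 measured immune receptor genes, 18 were higher, with a median log2 ratio of 6.19. They included the activating receptor *Trem1* at 1722 to 2497 CPM, its adaptor *Tyrobp* at 1701 to 2224 CPM, the inhibitory receptor *Lilrb4* at 3937 to 6242 CPM, the lipopolysaccharide co-receptor *Cd14* at 4224 to 7406 CPM, the decoy receptor *Il1r2* at 2956 to 4419 CPM and the inflammasome sensor *Nlrp3* at 293 to 1154 CPM. *Tlr4* was the exception, at 24.4 to 85.9 CPM. Of the 6 genes of the NADPH oxidase, which makes superoxide, 5 were higher. The gene of a cytosolic subunit, *Ncf1*, was at 1256 to 2091 CPM, while *Cybb*, the catalytic subunit, was at 70.0 to 201 CPM. *Cyba*, its membrane partner, was at 513 to 660 CPM against 115 to 280 CPM in other wells and did not reach 4-fold in every mouse.

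Genes listed for NF-kB and stress feedback, which include immediate early genes, were partly shared with other wells. Of 16 genes in this list, 5 were higher, namely *Nfkbia*, *Nfkbie*, *Nfkbiz*, *Tnfaip2* and *Btg1*. *Nfkbia*, the inhibitor that is made anew after NF-kB activation, was at 7046 to 9818 CPM against 697 to 1583 CPM. The immediate early gene *Fos* was at 639 to 1212 CPM in neutrophil wells and 2070 to 4350 CPM in other wells. Among 6 survival genes only *Birc3* was 4-fold higher in every mouse, while *Mcl1*, on which neutrophil survival depends, was at 2612 to 4604 CPM against 479 to 830 CPM with a median log2 ratio of 2.65. The *Bcl2a1* genes were low, and how reads were assigned among these near-identical genes was not examined. Of 15 measured genes linked to tumor neutrophils, *Cd274* (PD-L1), *Arg2*, *Slc2a3* and *Cd300lf* were higher. *Cd274* was at 195 to 470 CPM against 5.93 to 32.1 CPM, and *Arg1* was at 0 to 14.6 CPM. Of 16 interferon response genes, 4 were higher, namely *Rsad2*, *Slfn1*, *Slfn2* and *Slfn4*, with *Slfn4* at 1955 to 4983 CPM. Genes listed for cytoskeleton and motility were abundant, as the 12 genes summed to 56545 to 64308 CPM against 12021 to 13959 CPM. Of these, 4 (*Coro1a*, *Lcp1*, *Srgn* and *Tmsb4x*) reached 4-fold in every mouse. *Srgn* is in this list and adds to its sum, but encodes the granule proteoglycan serglycin, not a cytoskeletal protein. With trimmed-mean (TMM) scaling in place of CPM, the log2 ratios of single mice shifted by -0.37 to 0.40, and 327 of the 350 genes were called again.

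Most markers of other leukocytes were low. Of 12 macrophage and monocyte genes, 1 was higher, *Csf1r*, at 160 to 244 CPM, and *C1qa*, *Mrc1*, *Ms4a7* and *Fcgr1* had 0 counts in all neutrophil wells. That list summed to 366 to 788 CPM in neutrophil wells and 417 to 1063 CPM in other wells. Of 9 measured lymphocyte genes, 7 had 0 counts, among them *Cd3e*, *Cd79a* and *Nkg7*, and the list summed to 0 to 31.4 CPM in neutrophil and 10.5 to 120 CPM in other wells. Of 7 genes of mast cells and other granulocytes, 5 had 0 counts, with a summed level of 0 to 37.4 CPM against 0 to 48.6 CPM. Genes for antigen presentation summed to 561, 262 and 0 CPM in Zeb1Fib-Ctrl 1, 2 and 3, against 57.7, 241 and 39.3 CPM in other wells. In Zeb1Fib-deleted 1, 2 and 3 they summed to 180, 175 and 213 CPM against 17.8, 49.2 and 52.5 CPM. Their sum was thus higher in neutrophil wells in every mouse but Zeb1Fib-Ctrl 3, though only slightly in Zeb1Fib-Ctrl 2. Most of the sum in neutrophil wells came from *Cd74* and *Itgax*. The MHC class II genes *H2-Aa*, *H2-Ab1* and *H2-Eb1* had few counts and *Flt3* had 0. The 4 measured erythroid and platelet genes summed to 0 to 112 CPM against 0 to 53.4 CPM, with *Hba-a1* and *Alas2* at 0, and 6 endothelial genes summed to 0 to 112 CPM against 4.53 to 51.6 CPM, with *Cldn5* at 0.

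Fibroblast transcripts were found in neutrophil wells at a lower level. The 12 fibroblast genes, none of which was at 0, summed to 9908, 2742 and 3628 CPM in neutrophil wells of Zeb1Fib-Ctrl and 10751, 4044 and 2424 CPM in those of Zeb1Fib-deleted mice, against 34955 to 67042 CPM in other wells, and 9 of 12 were at least 4-fold lower in every mouse. *Col3a1* was detected in 31.9% of neutrophil wells and 76.7% of other wells at 500 barcodes. The list reached 1% of counts in 67 neutrophil wells and 2% in 22, of which 13 belonged to Zeb1Fib-deleted 1. The summed level was highest in Zeb1Fib-Ctrl 1 and Zeb1Fib-deleted 1. Epithelial genes summed to 10.00 to 1403 CPM in neutrophil wells and 43.0 to 3936 CPM in other wells, and mural genes to 119 to 1010 CPM and 574 to 2858 CPM. Carry-over between wells and more than 1 cell per well were not tested.

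Of the genes behind the sort, *Ptprc* was abundant. In neutrophil wells it was at 1562, 1656 and 1347 CPM in Zeb1Fib-Ctrl and 1400, 1665 and 1514 CPM in Zeb1Fib-deleted mice, and in other wells at 1.75 to 115 CPM. The 6 mice lay close together. At least 1 transcript was present in 325 neutrophil wells (75.4%), and at 500 barcodes in 49.9% against 1.29% of other wells. The sort measured CD45 protein at the surface, which these counts do not. *Epcam* was at 48.8, 26.2 and 0 CPM in Zeb1Fib-Ctrl and 0, 102 and 176 CPM in Zeb1Fib-deleted mice, and 7 neutrophil wells had 2 or more rounded transcripts of it, of which 5 were in Zeb1Fib-deleted 3. *Pecam1*, which encodes CD31, had 1 count each in Zeb1Fib-Ctrl 2 and Zeb1Fib-deleted 3 and 0 in the rest. *Pdgfra*, the gene for the fibroblast antigen CD140a, was at 18.7 to 146 CPM against 439 to 730 CPM in other wells. *Zeb1*, the gene deleted in fibroblasts, had 1 to 6 counts per mouse in neutrophil wells and was too low to compare there. In other wells it was at 104, 90.9 and 67.3 CPM in Zeb1Fib-Ctrl and 56.4, 48.5 and 36.9 CPM in Zeb1Fib-deleted mice.

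Neutrophil wells differed among themselves along their *S100a8* and *S100a9* share. Wells were divided at a share of 5%, thinned to 500 barcodes each, and gene levels were taken relative to all counts but those of *S100a8* and *S100a9*. Of 84 list genes with at least 100 barcodes, 11 (13.1%) were higher at 5% or more in all 6 mice and 1 (1.19%) was lower in all 6. Of all 316 genes with as many barcodes, 22 (6.96%) were higher and 7 (2.22%) were lower in all 6 mice. The median log2 ratio was 0.20 over the 84 genes and 0.08 over the 316, on CPM + 50. Since the share selected the wells and the 2 classes differ in depth, this is a description without a test. Wells at 5% or more had a median of 1439 to 2869 transcripts and wells below 5% of 1026 to 2286. The class below 5% held 12, 40 and 3 wells of Zeb1Fib-Ctrl and 26, 35 and 19 wells of Zeb1Fib-deleted mice, so that Zeb1Fib-Ctrl 3 rests on 3 wells.

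*Retnlg* had the largest median ratio of the 84 genes. Below 5% it was at 516, 2489 and 6887 CPM in Zeb1Fib-Ctrl and 1984, 2242 and 3164 CPM in Zeb1Fib-deleted mice, and at 5% or more at 10742, 12764 and 11622 CPM and at 7997, 4465 and 15647 CPM. It was higher at 5% or more in 6 of 6 mice, with log2 ratios of 0.75 to 4.25 and a median of 2.14. Wells between 1% and 2% contained *Retnlg* in 3 of 20 cases at 500 barcodes, wells between 2% and 5% in 53.0%, wells between 5% and 10% in 83.2% and wells above 10% in 90.8%. *Lcn2* was at 516 to 1652 CPM below 5% and 2505 to 4299 CPM above, with a median log2 ratio of 1.66, higher in 6 of 6 mice. *Ccl6* (1.34), *Fpr2* (1.01) and the small GTPase gene *Rac2* (0.77) were also higher in 6 of 6 mice, and *Pglyrp1*, a peptidoglycan recognition protein (1.34), and *Mmp8* (1.27) in 5.

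Other neutrophil genes differed less along the share. *Il1b* was at 8259 to 15454 CPM below 5% and 11145 to 16534 CPM above, with a median log2 ratio of 0.19, higher in 5 mice. With the mice pooled, it was detected in 90.0% to 96.6% of wells of every bin of the share at 500 barcodes. *Csf3r* had a median log2 ratio of -0.07 and was higher in 3 mice. *Cxcl2* was at -0.20 and *Nfkbia* at -0.25, with 2 and 1 mice higher. *Zfp36*, which encodes an mRNA-destabilizing protein, was lower at 5% or more in 6 of 6 mice, with a median of -1.10, at 1349 to 2755 CPM below 5% and 608 to 1218 CPM above. No fibroblast gene among the 84 went one way in all 6 mice, but most had a median below 0. *Col6a2* had a median of -0.82 and *Sparc* of -0.60, and they were higher at 5% or more in 1 and 2 mice. *Col1a2* (-0.07) and *Col3a1* (-0.08) were higher in 1 and 3 mice, and *Dcn* (0.40) in 4. Pooled over mice at 500 barcodes, *Col1a2*, *Col3a1* and *Sparc* were each detected less often in wells above 10% than between 1% and 2%. Mice differed in both their share and their fibroblast transcripts, so this pooled comparison does not separate the share from the mouse.

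**Figure D4:**
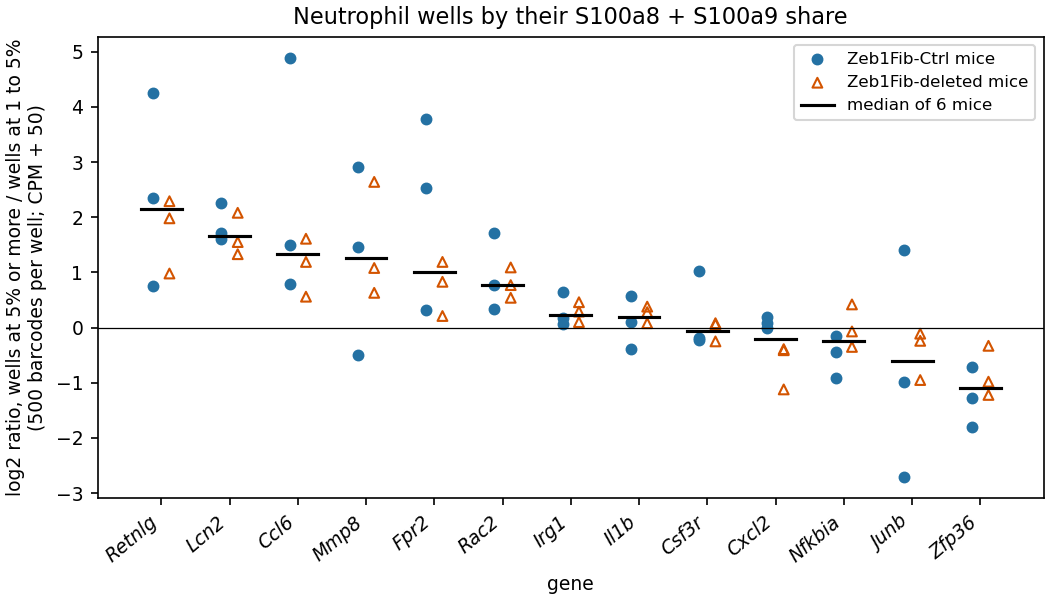
For 13 genes on the x axis, the y axis gives the log2 ratio of CPM + 50 in neutrophil wells with an *S100a8* and *S100a9* share of 5% or more to that in wells at 1 to 5%, each thinned to 500 barcodes. Circles are Zeb1Fib-Ctrl mice, triangles Zeb1Fib-deleted mice and bars the median of 6 mice, which is 2.14 for *Retnlg*, near 0 for *Csf3r* (-0.07) and -1.10 for *Zfp36*.

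Neutrophil wells with and without clear *Ptprc* signal were then compared, because an exclusion of cells by *Ptprc* transcripts removes some neutrophils and keeps others. Rounded *Ptprc* was 0 to 1 in 196 neutrophil wells and 2 or more in 235. The wells with 2 or more numbered 16, 102 and 7 in Zeb1Fib-Ctrl and 35, 30 and 45 in Zeb1Fib-deleted mice. They were deeper, with medians of 2275, 1929 and 2356 transcripts in Zeb1Fib-Ctrl and 1442, 1391 and 3134 in Zeb1Fib-deleted mice, against 746, 894 and 1064 and 897, 857 and 1199 in wells with 0 to 1. With both limits on *Ptprc* and *Epcam* applied, 196 of the 928 remaining wells had at least 1% of *S100a8* and *S100a9*. The median *S100a8* and *S100a9* share was also higher in the wells with 2 or more *Ptprc* transcripts in every mouse, from 4.87 to 9.60% against 3.37 to 5.94%.

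Counts were summed per mouse and *Ptprc* class and tested with edgeR (quasi-likelihood, Benjamini-Hochberg adjusted) with the mouse as a block, without *Ptprc*, *S100a8* and *S100a9*. Of 623 genes tested, 1 was higher (0.161%) and 0 were lower (0%) in wells with 2 or more *Ptprc* transcripts, and 72 had an unadjusted p under 0.05. The 1 gene was *Retnlg*. It was at 5145, 9892 and 8719 CPM in wells with 0 to 1 *Ptprc* transcripts and at 8795, 13439 and 15226 CPM in wells with 2 or more of Zeb1Fib-Ctrl 1, 2 and 3. In Zeb1Fib-deleted 1, 2 and 3 it was at 4279, 2148 and 9166 CPM and at 10016, 4351 and 14473 CPM. *Retnlg* was thus higher in 6 of 6 mice, with a log2 fold change of 0.77 ± 0.14 (SE; adjusted p = 0.00142 in edgeR). With wells thinned to 500 barcodes the change was 0.48 ± 0.13 (SE) and did not pass in edgeR (adjusted p = 0.197), and without Zeb1Fib-deleted 2 it was 0.74 with an adjusted p of 0.0807 in edgeR. Depth, the *S100a8* and *S100a9* share and fibroblast transcripts moved with the *Ptprc* class, and their part in the difference was not tested.

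The other genes did not pass the test and are given as values. Among the smallest p-values were *Ifitm6*, with a log2 fold change of 0.97 ± 0.29 (SE), the selectin ligand *Selplg* with 0.67 ± 0.20, the interferon-induced *Slfn1* with 0.84 ± 0.25 and the oxidase regulator *Rac2* with 0.60 ± 0.18, each at an adjusted p of 0.126 in edgeR. Below 0 were the calcium pump *Atp2b1* with -0.97 ± 0.24 (adjusted p = 0.109) and *Basp1* with -0.76 ± 0.22, *Jun* with -0.88 ± 0.26 and the matrix genes *Dcn* with -0.78 ± 0.21 and *Col6a2* with -0.85 ± 0.25 (adjusted p = 0.126 each). All 8 fibroblast genes tested had a value below 0, with a median of -0.58 against -0.03 for all 623 genes, and 0 passed. The whole list of 12 fibroblast genes summed to 18227, 3934 and 4401 CPM in wells with 0 to 1 *Ptprc* transcripts of Zeb1Fib-Ctrl mice. In wells with 2 or more of these mice it summed to 8268, 2257 and 3004 CPM. In Zeb1Fib-deleted mice the sums were 13047, 4526 and 2698 against 9074, 3760 and 2363 CPM. By list, 0 of 12 receptors for migration (median 0.13), 0 of 15 immune receptors (0.20) and 0 of 8 cytokines (-0.07) passed in either direction. Likewise, 0 of 16 NF-kB and stress feedback genes (0.04) and 0 of 12 genes listed for cytoskeleton and motility (0.09) passed. Of 4 secondary and 6 tertiary granule genes, 0 passed, with medians of 0.28 and 0.18. Of 5 oxidase, 2 survival, 8 tumor neutrophil and 7 interferon genes tested, 0 passed, with medians of 0.15, 0.10, -0.04 and 0.21.

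**Figure D5:**
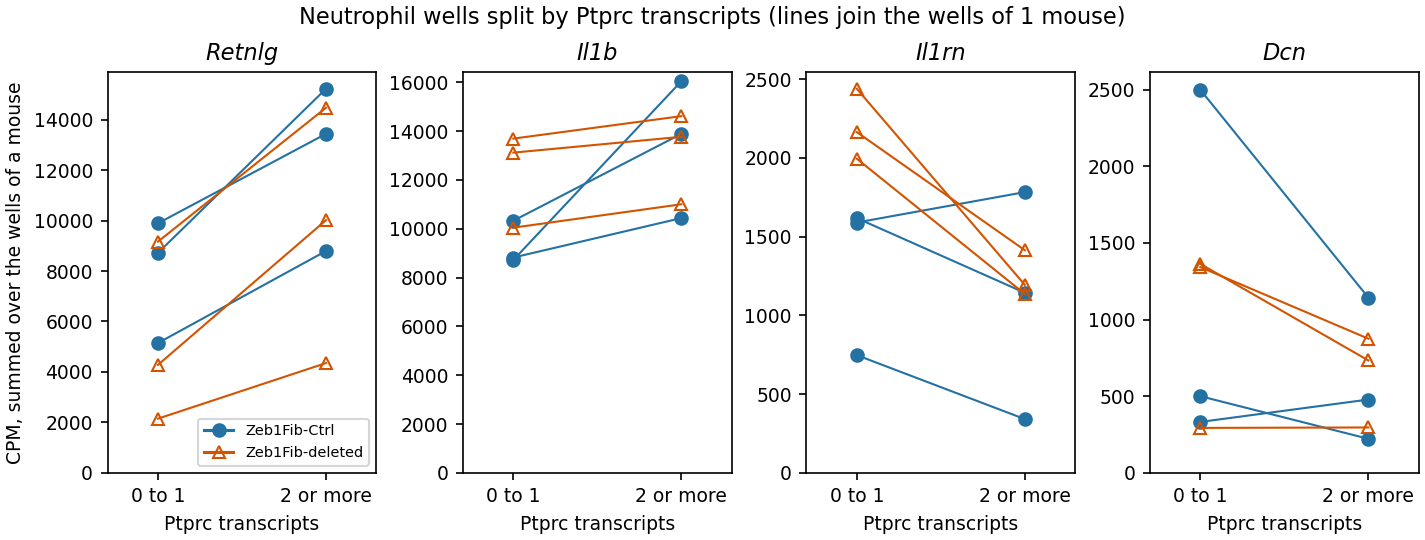
In each panel the y axis is the CPM of a gene summed over neutrophil wells of a mouse, for wells with 0 to 1 and with 2 or more *Ptprc* transcripts on the x axis, and each line is 1 mouse (circles Zeb1Fib-Ctrl, triangles Zeb1Fib-deleted). *Retnlg* and *Il1b* go up in all 6 mice, but only *Retnlg* passed the test, while *Il1rn* goes down in 5 mice and *Dcn* in 4.

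Genotypes were compared within neutrophil wells on counts summed per mouse, which ranged from 26731 counts in Zeb1Fib-Ctrl 3 to 267643 in Zeb1Fib-Ctrl 2. By the same edgeR test without a block, 0 of 1340 genes were higher (0%) and 0 were lower (0%) in Zeb1Fib-deleted mice. Before adjustment, 47 genes lay under 0.05 in edgeR and 28 in DESeq2, which also called 0 genes. The smallest adjusted p was 0.969. The CPM of the 2 groups did not overlap for 94 genes (7.01%).

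The genes with the smallest p are given as values. *Thbs1*, which encodes the matrix glycoprotein thrombospondin-1, was at 2275, 2171 and 1984 CPM in Zeb1Fib-Ctrl and 1391, 1213 and 848 CPM in Zeb1Fib-deleted mice. The groups did not overlap, and the log2 fold change was -0.89 ± 0.23 (SE; adjusted p = 0.969 in edgeR). The chemokine gene *Cxcl10* was at 73.2, 1140 and 374 CPM in Zeb1Fib-Ctrl and 150, 43.8 and 75.3 CPM in Zeb1Fib-deleted mice, with a log2 fold change of -2.70 ± 0.67 (SE; adjusted p = 0.969 in edgeR). Zeb1Fib-Ctrl 1 lay within the range of the Zeb1Fib-deleted mice, and 305 of the *Cxcl10* counts came from Zeb1Fib-Ctrl 2. Without Zeb1Fib-Ctrl 1, *Cxcl10* was the only gene to pass, at -3.16 ± 0.47 (SE; adjusted p = 0.00320 in edgeR). *Ifitm6* (-1.10 ± 0.35), *Samd9l* (-1.38 ± 0.47) and *Oas3* (-0.98 ± 0.33), which respond to interferon or resemble genes that do, had values below 0. Above 0 were *Apoe*, for apolipoprotein E, with 2.13 ± 0.57, the ribosomal protein gene *Rpl7* with 1.46 ± 0.40, *Ptms* with 1.08 ± 0.32, the translation factor gene *Eef1b2* with 1.26 ± 0.37 and *Ptma* with 1.86 ± 0.59. Each of these 5 was higher in other wells than in neutrophil wells, with median log2 ratios of -2.05, -1.81, -1.29, -1.66 and -2.77.

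The neutrophil genes themselves showed no difference that passed the test. *Il1b* was at 11908 ± 1514 CPM in Zeb1Fib-Ctrl and 12835 ± 1805 CPM in Zeb1Fib-deleted mice (SD, n = 3 each), with a log2 fold change of 0.12 ± 0.17 (SE). *Retnlg* was at 10953 ± 2396 and 8163 ± 4983 CPM, with -0.39 ± 0.36 (SE). The median log2 fold change was 0.00 for all genes tested. By list, it was -0.16 for 12 receptors for migration, 0.11 for 13 cytokines, -0.03 for 18 immune receptors and 0.03 for 6 oxidase genes. It was 0.10 for 16 NF-kB and stress feedback genes, -0.25 for 5 secondary granule genes and -0.17 for 7 tertiary granule and secretion genes. For 3 survival genes it was -0.25, for 9 tumor neutrophil genes -0.04 and for 12 genes listed for cytoskeleton and motility -0.04. In all these lists, 0 genes were called. The 12 interferon response genes tested had a median of -0.49, with 2 above 0 and 0 that passed. Their list summed to 9478, 13074 and 16701 CPM in Zeb1Fib-Ctrl and to 11759, 10566 and 8377 CPM in Zeb1Fib-deleted mice, so that Zeb1Fib-Ctrl 1 lay among the Zeb1Fib-deleted mice. Of the 4 neutrophil markers that the rule did not use (median -0.11), and of 2 macrophage, 1 epithelial and 1 mural gene tested, 0 passed. Among 10 fibroblast genes tested in neutrophil wells the median was 0.18 and 0 passed.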

How the data were processed

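Single cells of 6 mice were processed by SORT-seq, a plate method with CEL-Seq2 libraries. The authors aligned reads to the GRCm38 transcriptome with bwa and deposited, per gene and well, whole barcode counts (molecular barcodes) and estimated transcript counts corrected for barcode collisions, the estimated counts being used here. Spike-in RNA (7.85 to 18.6% of a plate's transcripts) was dropped. Plates held 1575726 to 3699058 transcripts. All plates use the same 384 well barcodes. Shares were compared by exact permutation tests over mice. Sums per mouse were rounded and tested with edgeR 4.0.16 (TMM, filterByExpr, adjusted p of 0.05), and with DESeq2 1.42.0 as an alternative. The fits were tested on simulated data in which 200 genes above the median level were changed 3-fold. Of these, 176 were recovered in the genotype fit and 200 in the *Ptprc* fit, with 2 false calls in each. The simulated mice shared a common dispersion and had no mean differences of their own. The simulation therefore does not show whether 3-fold changes, smaller changes or changes in low genes could be found in these 6 mice. Genes were named from lists, by largest ratio, or by smallest p. The members, gene lists and tests were chosen with earlier results of these data known, and the division at 5% after the values had been seen. Gene positions are from GENCODE vM21 (GRCm38), which names *Irg1* *Acod1*. Whether strand was used in counting is not given in the sources used here. Bounds and p-values describe these 6 mice. Some genes of the lists are not reported here by name.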

Additional observations from a re-analysis of the deposited data

Results flagged for a closer look

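Wells with 10% or more mitochondrial counts entered no comparison. Among them, an *S100a8* and *S100a9* share of 1% or more was found in 4 of 139, 92 of 145 and 8 of 221 wells of Zeb1Fib-Ctrl 1, 2 and 3, and in 8 of 71, 13 of 137 and 93 of 260 wells of Zeb1Fib-deleted 1, 2 and 3. These are signals in wells outside the main measurement.

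For 3 of 108 list genes (2.78%), beside 17 of all 623 genes examined (2.73%), the log2 ratio between wells with 2 or more and 0 to 1 *Ptprc* transcripts went one way in all Zeb1Fib-Ctrl mice and the other way in all Zeb1Fib-deleted mice. The mean log2 ratio was 0.74 in Zeb1Fib-Ctrl and -0.22 in Zeb1Fib-deleted mice for *Cfl1* (difference -0.97), and 0.55 and -0.24 for *Msn* (-0.79), both regulators of the actin cytoskeleton. For *Slfn2*, an interferon-induced gene, it was -0.58 and 0.47 (1.05). In each gene a Zeb1Fib-deleted mouse lay close to 0, at -0.05 for *Cfl1*, -0.05 for *Msn* and 0.01 for *Slfn2*. The difference was not tested.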

How the results depend on the processing

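The difference in the share of neutrophil wells was -4.16 points at a threshold of 5% and -4.71 points with wells limited to *Ptprc* and *Epcam* of 0 or 1. It ran from -11.6 to 25.0 points with single mice left out and kept its sign under the other alternatives, with p at 0.2 or above throughout. For the genotypes, 2 genes passed without a filter on low counts, *Cxcl10* and *Gdpd3* (named after its values were seen), and 0 to 1 gene with single mice left out. For the *Ptprc* classes, 4 genes passed without the filter (*Retnlg*, *Il1b*, *Selplg* and *Srgn*), 2 with the division between 0 and 1 *Ptprc* transcripts (in 5 mice, as Zeb1Fib-Ctrl 1 had fewer than 5 wells at 0), 0 after thinning and 0 with no replicate block, and 0 to 2 with single mice left out (0 without Zeb1Fib-deleted 2, and *Retnlg* and *Atp2b1* without Zeb1Fib-deleted 1). With no replicate block, *Retnlg* had a log2 fold change of 0.70 and an adjusted p of 0.70 in edgeR. The causes of these changes were not tested. The mouse is the block by design, as both classes come from the same animals. *Rn45s*, an rRNA row with up to 2.12% of the counts of neutrophil wells, was left out in an alternative added after seeing the data, with 0 and 1 genes. Genes higher in neutrophil wells numbered 603 at 2-fold, 261 to 388 with other priors, with 349 on barcode counts, 347 at a threshold of 2% and 339 with TMM scaling, and 355 to 390 with single mice left out. At 1 count, CPM in neutrophil wells was 3.74 to 37.4 depending on the mouse, which limits what low genes can show.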

Other observations

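Ribosomal protein genes, a group picked after the values had been seen and therefore given without a test, summed to 19570, 12218 and 16196 CPM in neutrophil wells of Zeb1Fib-Ctrl 1, 2 and 3 and to 15610, 21567 and 26213 CPM in those of Zeb1Fib-deleted 1, 2 and 3. The groups overlapped. Of 60 such genes in the genotype comparison, 58 had a value above 0, with a median log2 fold change of 0.65, which was 0.34 without Zeb1Fib-Ctrl 2 and 0.38 without Zeb1Fib-deleted 3. In other wells the same genes summed to 55830 to 92201 CPM.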
